A study of Homo sapiens with 4 samples.

Results

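SR proteins and heterogeneous nuclear ribonucleoproteins (hnRNPs) are the most abundant sequence-specific RNA-binding proteins that steer splice site choice. Their genes were taken from the expression table by symbol, as SRSF or HNRNP followed by the member's number or letters, and symbols of pseudogenes were left out. This gave 32 of 16811 genes, of which 11 are SR protein genes (*SRSF1* to *SRSF11*) and 21 are hnRNP genes. *SRSF12* was not analysed here.

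RNA-seq was made from MCF12A, an immortalised non-tumorigenic human mammary epithelial line that the labels list under breast cancer cell line. The wild-type group (2 libraries) held unedited cells. The edited group (2 libraries), labelled C1orf132 KO, came from cells in which CRISPR/Cas9 with a pair of guides removed p2, a distal promoter of *C1orf132*, the host gene of miR-29b2 and miR-29c. Colonies were grown from single sorted GFP-positive cells. Which colony gave the RNA is not given in the sources used here, so an effect of the deletion and a property of a clone cannot be told apart. All groups share the medium, with horse serum, EGF, hydrocortisone, cholera toxin and insulin. The study calls its libraries biological replicates, and *C1orf132* itself was not analysed here.

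An SR protein carries 1 or more RNA recognition motifs and a tail rich in arginine and serine. Bound to exonic enhancers, SR proteins recruit the U1 and U2 small nuclear ribonucleoproteins (snRNPs) and favour exon inclusion, and their tails are phosphorylated by the SRPK and CLK kinases. hnRNPs coat nascent transcripts, and many of them, such as hnRNP A1, bind silencers and favour exon skipping. Many genes of both families control their own level by splicing in an exon with an early stop codon, which sends the transcript to nonsense-mediated decay (NMD). The balance of SR proteins and hnRNPs is known to shift splicing in epithelial cells that take on mesenchymal traits and in dividing cells.

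The deposited values behave like a signal corrected for transcript length and library size, but how they were normalized is not given in the sources used here. Levels of different genes are set side by side below on that reading. Library sums ranged from 1444644 to 1655437. The depth was estimated, from few values, at about 29000000 to 36000000 reads. A log2 fold change below is edited minus wild type on log2(value + 1), tested with limma on the 9590 genes whose values averaged at least 10, of which 31 are members. An adjusted p under 0.05 was called. With 2 libraries against 2, an exact permutation test of a single value cannot give a two-sided p below 0.333, so tests rest on the spread shared across genes.

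The epithelial label was checked first. Of 13 tested epithelial markers, 6 fell and 1 (*KRT8*) rose, and the list's median difference was -2.31 on the log2 scale. The summed level of all 15 with a row was 4420 and 4093 in edited and 6695 and 14967 in wild-type libraries. Most of each sum was *KRT5*, which did not pass (adjusted p = 0.146 from limma). It was 3514 and 3056 in edited and 4590 and 11914 in wild-type libraries. *CDH1*, the epithelial cadherin, was 150 and 123 in wild-type and 3.89 and 1.54 in edited libraries. Of 5 tested mesenchymal markers, *VIM* rose and *COL1A1* fell. Of the 4 below the filter, *CDH2* (2.56, adjusted p = 0.0347) and *ZEB1* (2.19, adjusted p = 0.0307) rose when tested without it, at values of at most 8.87. The sums of all 9 were 1077 and 5070 in edited and 1003 and 613 in wild-type libraries, and *FN1* made up 3735 of the highest and 171 of the other edited sum. Of the 6 blood and immune markers 1 had a row, *CD14*, with a level of 8.98 to 15.1, and none of the 5 endothelial markers had one. In bulk RNA, fewer cells of a type and less RNA per cell cannot be told apart. The part of these shifts in the results below was not tested.

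*HNRNPAB* was the 1 member of 31 that passed the threshold, and it rose. Across all 9590 genes 7.09% passed, 2.89% higher and 4.20% lower in edited cells, so a count of 1 in 31 is not above the background. At the stricter threshold of 0.001, 0 members and 1 gene of all tested passed limma's test. Of the 11 SR protein genes 0 passed at 0.05, while 7 had an unadjusted p under 0.05, 6 with the edited group above and 1 with it below. The unadjusted share over all genes was 32.3%, with 18.7% higher and 13.6% lower. Among the 2320 tested genes with a mean of at least 100, 556 were higher and 195 lower by this measure. Of the 20 tested hnRNP genes 6 had an unadjusted p under 0.05, all with the higher level in edited cells.

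Most members nevertheless had both edited libraries above both wild-type libraries. Among the SR protein genes 9 of 11 were placed so, 1 (*SRSF5*) had both edited libraries below, and 1 (*SRSF11*) overlapped. Among the hnRNP genes 16 of 20 were higher without overlap, 0 were lower and 4 overlapped (*HNRNPA1*, *HNRNPC*, *HNRNPDL* and *HNRNPLL*). Over all tested genes the groups did not overlap in 38.3% with the higher and 26.9% with the lower level in edited cells. Most members are highly expressed, and among the 2320 genes with a mean of at least 100 these shares were 47.7% and 18.0%. The median log2 fold change was 0.61 over the SR protein genes and 0.41 over the hnRNP genes, beside 0.09 over all tested genes and 0.24 over those with a mean of at least 100. The plot of every member by library shows this layout.

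**Figure D1:**
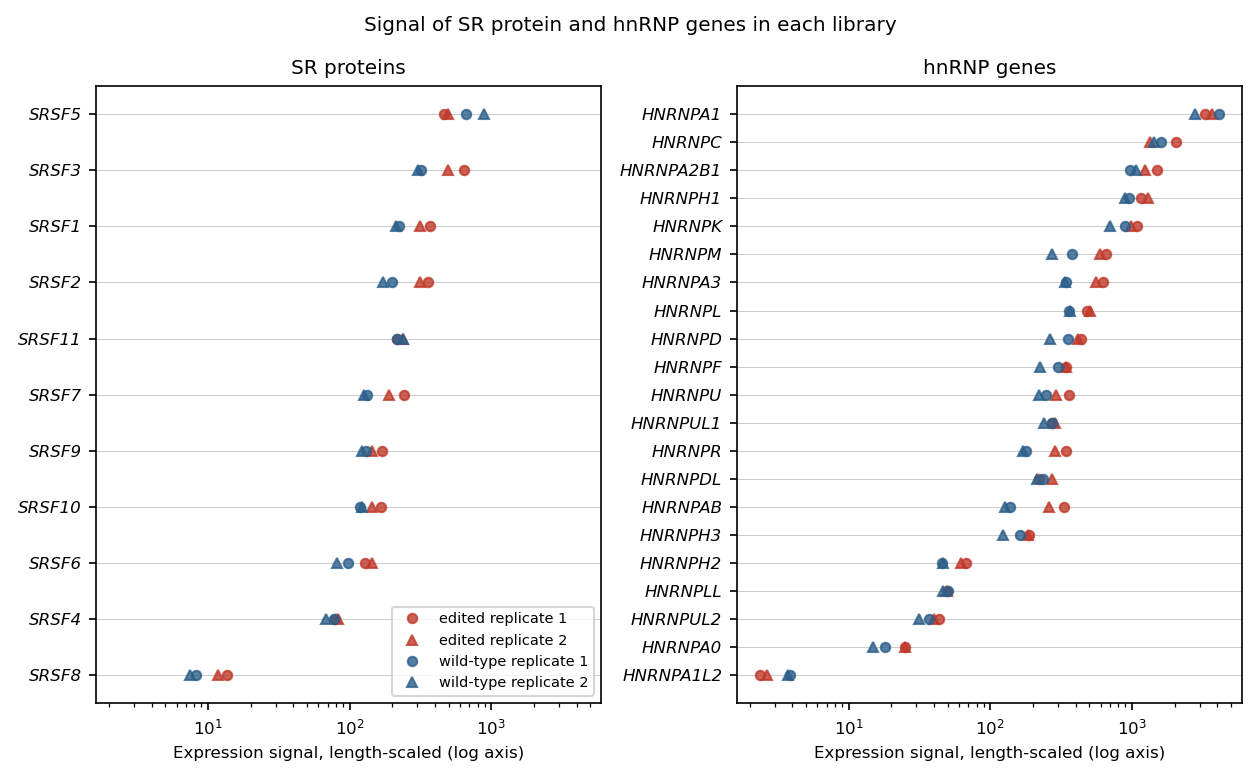
Deposited value of each of the 32 members (horizontal log axis, length-scaled signal) in the 4 libraries, with edited libraries in red, wild-type libraries in blue, circles for replicate 1 and triangles for replicate 2, and genes ordered by mean level within each family. Edited points lie to the right of wild-type points for 9 of 11 SR protein genes and 16 of 20 tested hnRNP genes, and *SRSF5* is the SR protein gene with the opposite order.

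Upstream sequence is shown for 3 members on which the results turn, *HNRNPAB* (the member that passed), *SRSF3* (the largest difference of an SR protein gene) and *SRSF5* (the opposite order). The sequences come from RefSeq on GRCh38.p14 and give the 120 bases before the annotated start, 5′ to 3′ on the plus strand. Capitals mark matches to the letters CCAAT (on either strand), TATAAA and CCGGAAG.
HNRNPAB, chr5:178204413-178204532: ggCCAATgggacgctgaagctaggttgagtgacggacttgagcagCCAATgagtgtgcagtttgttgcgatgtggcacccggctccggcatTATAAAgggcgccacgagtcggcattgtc
SRSF3, chr6:36594242-36594361: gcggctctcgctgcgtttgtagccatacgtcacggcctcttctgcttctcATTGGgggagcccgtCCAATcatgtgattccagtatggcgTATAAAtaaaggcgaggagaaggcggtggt
SRSF5, chr14:69767022-69767141: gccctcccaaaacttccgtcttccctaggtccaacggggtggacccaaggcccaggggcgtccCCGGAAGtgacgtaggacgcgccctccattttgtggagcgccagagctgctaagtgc

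The windows of *HNRNPAB* and *SRSF3* share the letters of a CCAAT box and of a TATA box, and that of *SRSF5* holds the letters of an ETS site in their place. Their GC contents were 57.5%, 55.0% and 64.2%. Over the 250 bases before each start, CCAAT was found on either strand in 21 of 44 windows of the 30 members with an entry (47.7%). Its share was 32.0% over all 35116 windows and 32.9% over the 10317 windows of tested genes. TATAAA was found, also on either strand, in 6 member windows (13.6%), those of *SRSF3*, *SRSF7*, *SRSF11*, *HNRNPAB*, *HNRNPC* and *HNRNPD*. Its shares were 10.7% over all windows and 5.35% over those of tested genes. In the order given, the log2 fold changes of these 6 members were 0.87, 0.73, 0.01, 1.15, 0.13 and 0.49.

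Of the other motifs searched, each on either strand, CCGGAAG was in 11.4% of member windows and 15.5% of those of tested genes. GGGCGG, the letters of a GC box, was in 59.1% and 66.0%. CACGTG, an E-box, was in 15.9% and 8.52%. The palindromic NRF1 motif was in 0 of 44 member windows and 1.78% of those of tested genes. CCGGAAG was upstream of *HNRNPD*, *HNRNPF*, *HNRNPLL*, *SRSF4* and *SRSF5*, with log2 fold changes of 0.49, 0.39, 0.04, 0.16 and -0.68. A link between motifs and differences was not tested. No motif of the set contains another. The median GC content of the windows was 64.8% in members (33.6% to 73.6%) and 65.2% in tested genes. Windows of 1 gene can overlap, and a match is a description of letters. *HNRNPA1* and *SRSF2* had no entry.

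Among the SR proteins with the largest differences, *SRSF3* encodes the smallest canonical member, which also couples splicing to mRNA export. It was 647 and 496 in edited and 317 and 303 in wild-type libraries (a log2 fold change of 0.87, SE 0.23, 95% interval 0.30 to 1.43, adjusted p = 0.0735 from limma). *SRSF2*, encoding SC35, a protein found in nuclear speckles, was 358 and 313 in edited and 199 and 171 in wild-type libraries (a log2 fold change of 0.86, SE 0.21, interval 0.34 to 1.38, adjusted p = 0.0652 from limma). In both genes the lowest edited value was above the highest wild-type value, and both missed the threshold.

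*SRSF7*, whose product binds RNA through a zinc knuckle as well, was 244 and 189 in edited and 133 and 126 in wild-type libraries (a log2 fold change of 0.73, interval 0.19 to 1.27, adjusted p = 0.0887). *SRSF1*, a proto-oncogene and the founding member of the family, was 367 and 316 in edited and 222 and 213 in wild-type libraries (a log2 fold change of 0.64, SE 0.20, interval 0.14 to 1.15, adjusted p = 0.0988). The groups stood apart in both, with the wider spread in edited libraries. *SRSF6*, whose product binds exonic enhancers, was 129 and 144 in edited and 96.7 and 81.5 in wild-type libraries (a log2 fold change of 0.61, interval 0.11 to 1.10, adjusted p = 0.106).

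*SRSF9*, *SRSF10*, *SRSF4* and *SRSF8* also had both edited libraries above both wild-type ones. *SRSF9*, a close relative of *SRSF1*, was 169 and 145 in edited and 131 and 122 in wild-type libraries (a log2 fold change of 0.30, adjusted p = 0.323). *SRSF10*, whose product becomes a repressor of splicing when dephosphorylated, was 167 and 144 in edited and 119 and 122 in wild-type libraries (0.36, adjusted p = 0.251). In these genes the intervals of the log2 fold change reached from -0.18 to 0.79 and from -0.12 to 0.84.

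*SRSF4* was 79.3 and 83.2 in edited and 77.2 and 68.0 in wild-type libraries, a log2 fold change of 0.16 with an interval of -0.29 to 0.61. *SRSF8*, a retroposed relative of *SRSF2*, had the lowest level of the family, 13.6 and 11.7 in edited and 8.21 and 7.49 in wild-type libraries (0.62, adjusted p = 0.145). It rests on about 275 to 500 reads per library, where *SRSF3* rests on 10616 to 23286.

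*SRSF11*, encoding an atypical SR protein also known as p54, was 217 and 238 in edited and 216 and 237 in wild-type libraries. The groups overlapped fully, and the log2 fold change was 0.01 (SE 0.20, interval -0.48 to 0.50, adjusted p = 0.985).

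*SRSF5*, an SR protein gene first described as induced by insulin and in regenerating liver, was 466 and 491 in edited and 666 and 890 in wild-type libraries. Both edited values were below both wild-type values, and the wild-type libraries differed more from each other (SD 158) than the edited ones (SD 18.0). The log2 fold change was -0.68 (SE 0.23, interval -1.26 to -0.11), and the adjusted p of 0.114 from limma missed the threshold. *SRSF5* lies on chromosome 14 (69767142 to 69772005), where the median log2 fold change of 312 tested genes was -0.46. Less that median, the difference was -0.23.

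**Figure D2:**
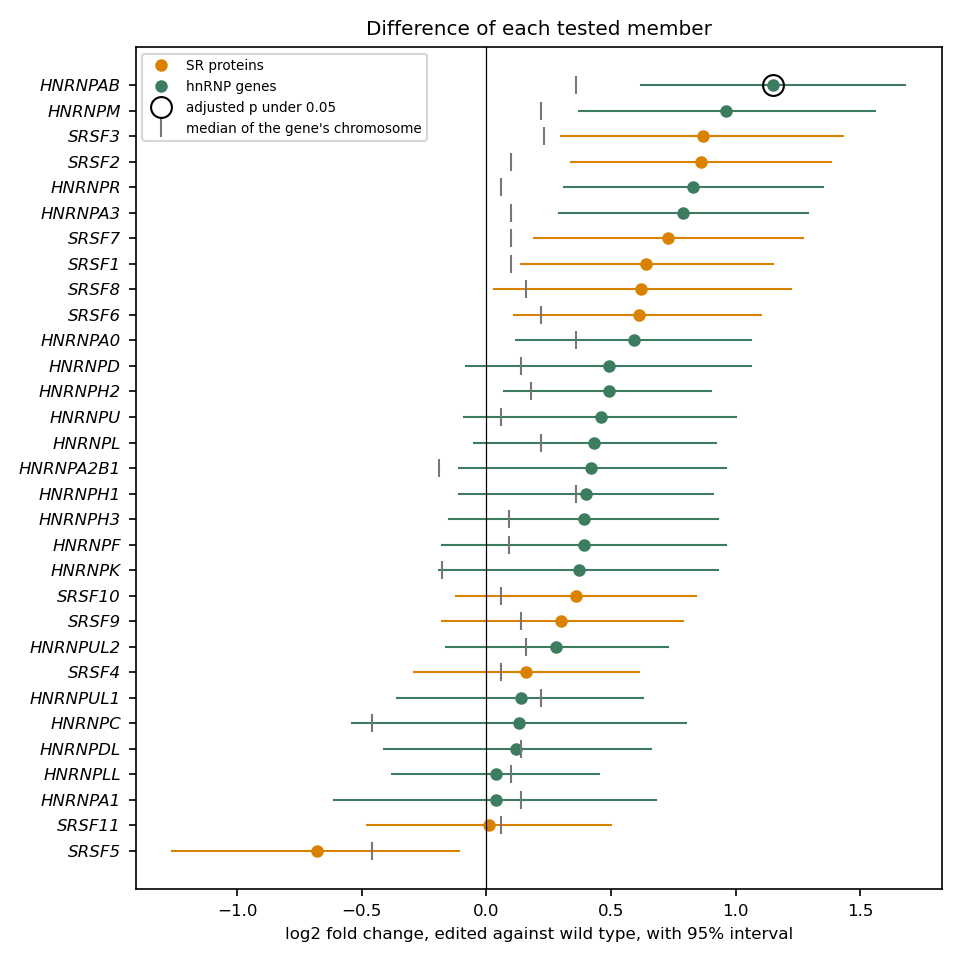
Log2 fold change (edited minus wild type, on log2 of value + 1) of the 31 tested members with its 95% interval, ordered by size, with a grey tick at the median of all tested genes on the same chromosome. *HNRNPAB* at 1.15 is the ringed member that passed an adjusted p of 0.05, *SRSF5* at -0.68 is the lowest, and *HNRNPC* and *SRSF5* share the chromosome median of -0.46.

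The SR protein pool differed in make-up between the groups. *SRSF5* was the highest SR protein gene in wild-type cells, with 30.5% and 38.0% of the summed SR protein signal, and held 16.3% and 19.1% in edited cells. *SRSF3* held 22.6% and 19.3% in edited and 14.5% and 13.0% in wild-type cells. It was the highest SR protein gene in edited replicate 1, and nearly level with *SRSF5* in edited replicate 2 (19.3% and 19.1%). The shares of *SRSF2* were 12.5% and 12.2% in edited and 9.09% and 7.30% in wild-type cells. A share does not change when a library is multiplied by a single factor, though it can under quantile or loess normalization, and shares of 1 sum are tied. The share of *SRSF11*, whose level overlapped, was 7.60% and 9.25% in edited and 9.87% and 10.1% in wild-type cells.

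Ratios of 2 genes within a library do not change with a single factor per library either, and the pairs here were chosen after their values were seen. The ratio of *SRSF5* to *SRSF3* was 0.720 and 0.991 in edited and 2.10 and 2.93 in wild-type libraries. That of *SRSF5* to *SRSF11*, the member whose level overlapped, was 2.15 and 2.07 in edited and 3.09 and 3.75 in wild-type libraries. The groups did not overlap in either ratio. The summed SR protein signal was 2858 and 2569 in edited and 2184 and 2342 in wild-type libraries, or 0.173% and 0.155% against 0.136% and 0.162% of all values. As a share of all values the groups overlapped.

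**Figure D3:**
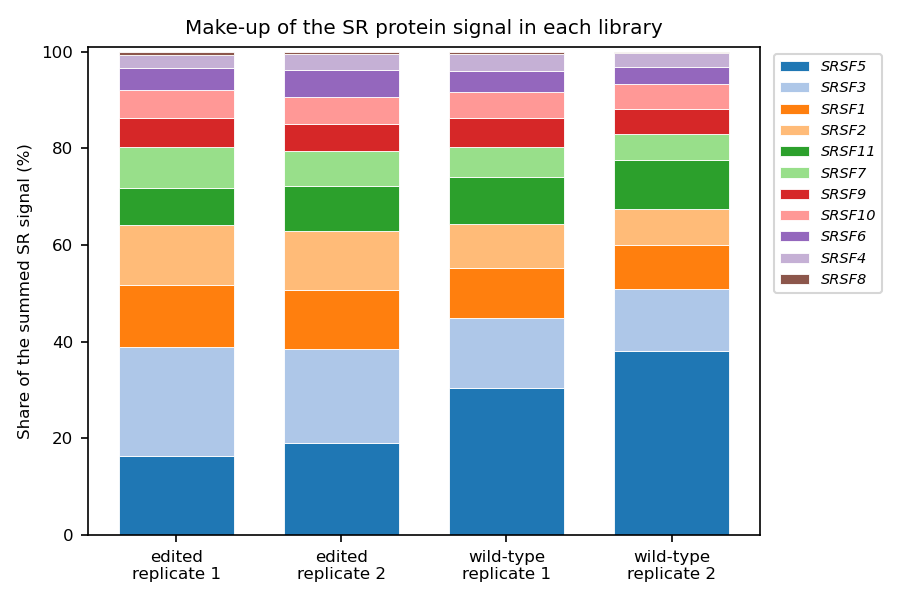
Share of the summed SR protein signal (percent) held by each SR protein gene in each of the 4 libraries, as stacked bars from 0 to 100%. The *SRSF5* segment takes 30.5% and 38.0% in wild-type and 16.3% and 19.1% in edited libraries, and the *SRSF3* segment is larger in edited libraries.

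*HNRNPAB* encodes an hnRNP A/B protein that binds RNA through a pair of recognition motifs and is also known as a transcriptional regulator, CBF-A. It lies on chromosome 5 (178204533 to 178211163) and was 330 and 261 in edited and 137 and 127 in wild-type libraries. Both edited values exceeded both wild-type values, and the means were 295 ± 48.5 and 132 ± 6.76 (SD, n = 2), a ratio of 2.24. The log2 fold change was 1.15 (SE 0.21, interval 0.62 to 1.68, adjusted p = 0.0420 from limma), with about 1913 to 4964 reads per library. The median of the 417 tested genes of chromosome 5 was 0.36, and the difference less that median was 0.79. The call is close to the threshold. It was lost with cyclic loess scaling (0.88, adjusted p = 0.0506), without edited replicate 1 (0.98, adjusted p = 0.111), without wild-type replicate 1 (1.20, adjusted p = 0.110) and without wild-type replicate 2 (1.10, adjusted p = 0.215).

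The 3 hnRNP genes next in size missed the threshold with groups that stood apart. *HNRNPM*, whose product regulates exon choice in mesenchymal transition and competes with the epithelial splicing regulator ESRP1, was 653 and 598 in edited and 375 and 274 in wild-type libraries (a log2 fold change of 0.96, interval 0.37 to 1.56, adjusted p = 0.0681). *HNRNPR*, a relative of *SYNCRIP*, was 343 and 284 in edited and 180 and 171 in wild-type libraries (0.83, interval 0.31 to 1.35, adjusted p = 0.0682). *HNRNPA3*, of the A/B subfamily, was 622 and 554 in edited and 345 and 335 in wild-type libraries (0.79, interval 0.29 to 1.29, adjusted p = 0.0715). Less the medians of their chromosomes (19, 1 and 2), these differences were 0.74, 0.77 and 0.69.

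The core A/B and C proteins that package nascent transcripts had the highest levels. *HNRNPA1*, the best-known splicing silencer protein, had a mean value of 3457 over the 4 libraries, the highest of all members. It was 3291 and 3644 in edited and 4117 and 2775 in wild-type libraries, so the wild-type libraries enclosed the edited ones (log2 fold change 0.04, SE 0.26, interval -0.61 to 0.68, adjusted p = 0.937). RefSeq lists 75 pseudogenes of *HNRNPA1*, and reads may be split among such copies. The row of the pseudogene *HNRNPA1P33* was 69.0 and 103 in edited and 156 and 143 in wild-type libraries (-0.82, adjusted p = 0.0922).

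*HNRNPC*, second in level and a binder of uridine tracts, was 2052 and 1350 in edited and 1609 and 1441 in wild-type libraries. The 2 edited libraries lay on either side of the wild-type ones (0.13, SE 0.27, interval -0.54 to 0.80, adjusted p = 0.773 from limma), where the median of its chromosome, 14, was -0.46. Less that median, the difference of *HNRNPC* was 0.58. *HNRNPA2B1*, whose products also act in microRNA sorting and RNA transport, was 1493 and 1245 in edited and 968 and 1069 in wild-type libraries (0.42, SE 0.22, interval -0.11 to 0.96, adjusted p = 0.232 from limma). Less the median of chromosome 7 (-0.19) its difference was 0.61. *HNRNPA0*, a single-exon gene on chromosome 5, was 25.2 in both edited libraries and 18.1 and 14.8 in wild-type libraries (0.59, adjusted p = 0.101).

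*HNRNPH1*, *HNRNPH2*, *HNRNPH3* and *HNRNPF* encode proteins that bind runs of guanines. All 4 were higher in both edited libraries, with log2 fold changes of 0.40, 0.49, 0.39 and 0.39 and adjusted p from 0.116 to 0.282. *HNRNPH1*, the highest of them, was 1149 and 1293 in edited and 954 and 890 in wild-type libraries, with an SE of 0.20, an interval of -0.11 to 0.91 and an adjusted p of 0.230. Less the median of chromosome 5 its difference was 0.05. *HNRNPK*, a binder of cytosine-rich RNA, was 1082 and 977 in edited and 899 and 704 in wild-type libraries (0.37, SE 0.23, interval -0.19 to 0.93, adjusted p = 0.304 from limma). Less the median of chromosome 9 (-0.18) its difference was larger, 0.55.

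Close relatives did not always have like values. *HNRNPL*, a regulator that binds CA repeats, was 478 and 503 in edited and 359 and 367 in wild-type libraries (0.43, adjusted p = 0.190). Its relative *HNRNPLL* was 49.2 and 49.7 against 50.3 and 46.2 (0.04, interval -0.38 to 0.45). The ratio of *HNRNPL* to *HNRNPLL* was 9.71 and 10.1 in edited and 7.13 and 7.95 in wild-type libraries, without overlap. *HNRNPD*, encoding AUF1, which binds AU-rich elements, was 438 and 418 in edited and 352 and 264 in wild-type libraries (0.49, adjusted p = 0.204). Its relative *HNRNPDL* was 220 and 273 against 237 and 214, with overlap (0.12, interval -0.41 to 0.66). The ratio of *HNRNPD* to *HNRNPDL* was 1.99 and 1.53 in edited and 1.49 and 1.23 in wild-type libraries. These pairs were chosen after the values were seen, and no difference between relatives was tested.

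*HNRNPU*, encoding the nuclear scaffold protein SAF-A, was 362 and 289 in edited and 249 and 222 in wild-type libraries (0.46, adjusted p = 0.208). Its relatives *HNRNPUL1* and *HNRNPUL2* had log2 fold changes of 0.14 and 0.28. *HNRNPA1L2*, a retroposed copy of *HNRNPA1* on chromosome 13, was the member below the filter, at 2.36 and 2.64 in edited and 3.88 and 3.75 in wild-type libraries. It rests on about 27 to 43 reads, and tested without the filter its log2 fold change was -0.46 (adjusted p = 0.241).

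The summed hnRNP signal was 13503 and 12680 in edited and 11669 and 9582 in wild-type libraries, or 0.816% and 0.767% of all values against 0.727% and 0.663%. The groups did not overlap in the sum or in the share. *HNRNPA1* held 24.4% and 28.7% of the sum in edited and 35.3% and 29.0% in wild-type libraries. The ratio of *HNRNPA1* to *HNRNPAB*, on the deposited scale, was 9.99 and 14.0 in edited and 30.2 and 21.9 in wild-type libraries. The ratio of *HNRNPM* to *HNRNPA1* was 0.198 and 0.164 in edited and 0.0911 and 0.0986 in wild-type libraries. Both pairs were chosen after their values were seen, and the groups did not overlap in either. They did overlap in the ratio of *HNRNPA1* to *HNRNPC*, which was 1.60 and 2.70 in edited and 2.56 and 1.93 in wild-type libraries.

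The family medians depended on how libraries are put on 1 scale. With library totals made equal, the median log2 fold change was 0.49 over the SR protein genes and 0.29 over the hnRNP genes, beside -0.03 over all tested genes. With quantile normalization these medians were 0.43, 0.24 and 0.05, and with cyclic loess 0.33, 0.16 and -0.01. On the deposited scale 10 of 11 SR protein genes and 20 of 20 tested hnRNP genes had a log2 fold change above 0. The share was 56.7% of all tested genes and 67.9% of those with a mean of at least 100. With cyclic loess 9 and 15 did, and these shares were 49.6% and 50.1%. The members that took the other sign under some scaling were *SRSF11*, *HNRNPA1*, *HNRNPC*, *HNRNPDL*, *HNRNPLL* and *HNRNPUL1*. With equal totals the groups did not overlap in 8 SR protein genes and 15 hnRNP genes with the higher level in edited cells, beside 31.7% of all tested genes (34.0% lower) and 41.9% of those with a mean of at least 100. Single members did not all move alike, as *SRSF8* went from 0.62 to 0.95 and *SRSF3* from 0.87 to 0.60 with quantile normalization. *SRSF5* kept its sign, from -0.68 as deposited to -0.98 with cyclic loess.

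**Figure D4:**
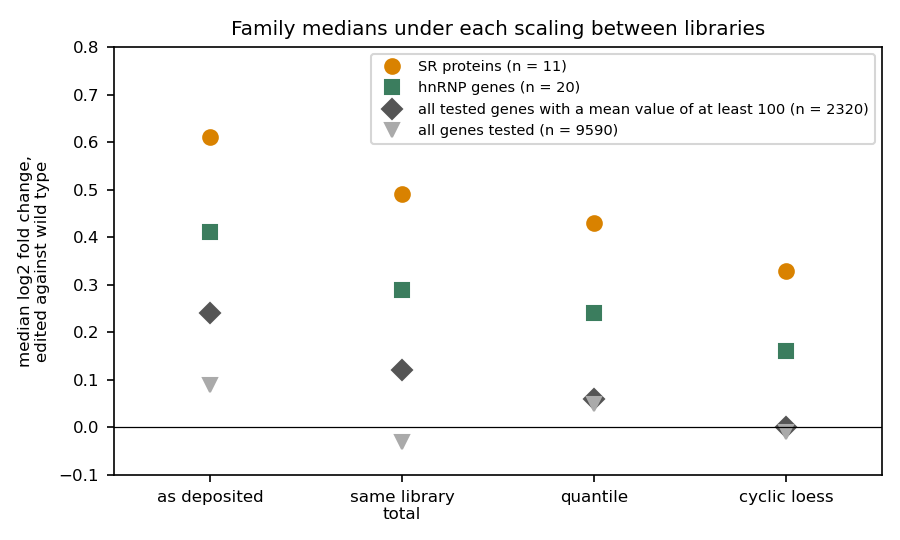
Median log2 fold change (edited minus wild type) of the tested SR protein genes, the tested hnRNP genes, all tested genes with a mean of at least 100 and all tested genes, under the deposited scale, equal library totals, quantile normalization and cyclic loess. The family medians move from 0.61 and 0.41 on the deposited scale to 0.33 and 0.16 with cyclic loess. That of genes with a mean of at least 100 moves from 0.24 to 0.00, while the median of all genes lies between -0.03 and 0.09.

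The edited promoter belongs to the host gene of miR-29b2 and miR-29c, so the members were searched for the letters that pair with the miR-29 seed. The mature sequences, from RefSeq, are printed with the seed (bases 2 to 8) in capitals, which the 3 share. The miRNAs themselves were not measured here.
hsa-miR-29a-3p: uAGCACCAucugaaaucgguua
hsa-miR-29b-3p: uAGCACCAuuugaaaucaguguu
hsa-miR-29c-3p: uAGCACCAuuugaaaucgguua
The matching letters, TGGTGCT, were found in the 3′ UTR of the canonical transcript of 3 of 31 tested members (9.68%), beside 15.4% of the 8357 tested genes with such a UTR. The 3 sites follow with the match in capitals, 5′ to 3′ on the transcript.
HNRNPA1, bases 1215 to 1221 of the 3′ UTR: gccttaccttTGGTGCTctctc
HNRNPUL1, bases 90 to 96 of the 3′ UTR: ccagatcccgTGGTGCTgggga
SRSF11, bases 242 to 248 of the 3′ UTR: tttactattcTGGTGCTgcttc

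The log2 fold changes of these 3 genes were 0.04, 0.14 and 0.01, and the median over the 28 tested members without a site was 0.45. Over all tested genes the medians were 0.01 with and 0.09 without a site. *HNRNPAB* and the other members with the largest differences hold no such letters in this UTR. UTRs of tested members had a median length of 2076 bases and those of tested genes 1209. A match is a description of letters, and no binding was measured.

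Genes that work with SR proteins and hnRNPs were counted by list. Genes of these lists that did not pass are named for their role, and were chosen after their values were seen. Of the 7 tested SR protein kinases (SRPK, CLK and related), 0 passed limma's test at an adjusted p of 0.05, 2 had an unadjusted p under 0.05 with the higher and 1 with the lower level in edited cells, and the median log2 fold change was -0.19. *SRPK1*, encoding a mainly cytoplasmic kinase, was 109 and 96.6 in edited and 75.5 and 60.0 in wild-type libraries (0.60, adjusted p = 0.115). *SRPK2* was 50.7 and 58.7 against 88.4 and 83.9 (-0.65, adjusted p = 0.0829). The groups of these kinases stood apart in opposite directions.

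Among the 7 genes for proteins that import, export or methylate SR proteins and hnRNPs, 2 rose and 0 fell, with a median of 0.92, where 2.89% of all tested genes rose. Over all 8 lists 6 genes that are not members rose, and this count was 0 without edited replicate 1, without wild-type replicate 1 or without wild-type replicate 2, and 14 without edited replicate 2. *TNPO1*, encoding transportin 1, the import receptor of hnRNP A1, was 309 and 255 in edited and 137 and 122 in wild-type libraries (1.11, adjusted p = 0.0427 from limma). *NXF1*, the main mRNA export receptor, was 185 and 170 against 99.0 and 85.0 (0.94, adjusted p = 0.0494). *TNPO3*, the import receptor of SR proteins, was 26.0 and 23.0 in edited and 32.2 and 33.3 in wild-type libraries (-0.41, adjusted p = 0.162).

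Of 14 tested hnRNP genes with other names 1 rose, *SYNCRIP* (hnRNP Q), at 178 and 164 in edited and 86.3 and 80.6 in wild-type libraries (1.03, adjusted p = 0.0399). *PTBP1*, encoding hnRNP I, a repressor of exons near polypyrimidine tracts, was 573 and 551 against 436 and 381 (0.46, adjusted p = 0.183), and its relative *PTBP3* was 16.5 and 19.6 against 29.7 and 33.9 (-0.79, adjusted p = 0.0627). Of 22 tested SR-related genes 2 rose, where 2.89% of all tested genes rose. *LUC7L*, of the U1-associated LUC7 family, was 110 and 122 in edited and 58.5 and 54.3 in wild-type libraries (1.03, adjusted p = 0.0385), and *BCLAF1* was 188 and 163 against 81.5 and 90.7 (1.02, adjusted p = 0.0441). *TRA2B*, a close partner of SR proteins on exonic enhancers, was 363 and 306 against 258 and 232 (0.44, adjusted p = 0.204).

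Of the spliceosome itself, 1 of 18 tested U2 and branch site genes rose, *PUF60*, at 81.6 and 81.7 in edited and 38.6 and 27.0 in wild-type libraries (1.31, adjusted p = 0.0355). Of the 18 tested Sm and LSm genes 0 passed at an adjusted p of 0.05, but 15 had both edited libraries above both wild-type ones, 10 had an unadjusted p under 0.05, and the median was 0.61. Of 26 tri-snRNP and catalytic step genes 0 passed, 9 had an unadjusted p under 0.05 and 21 were higher without overlap, with a median of 0.39. Of 14 genes of the exon junction complex and NMD 0 passed, 4 had an unadjusted p under 0.05 and 7 were higher without overlap, with a median of 0.08. Over all tested genes 38.3% were higher without overlap and 18.7% had an unadjusted p under 0.05 with the higher level in edited cells, and among genes with a mean of at least 100 the first share was 47.7%. The 7 of 14 of the last list is near these shares. In none of these lists did a gene fall. Over all tested genes 2.89% rose and 4.20% fell, and each list held only 7 to 26 tested genes. The plot by list sets the members beside them.

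**Figure D5:**
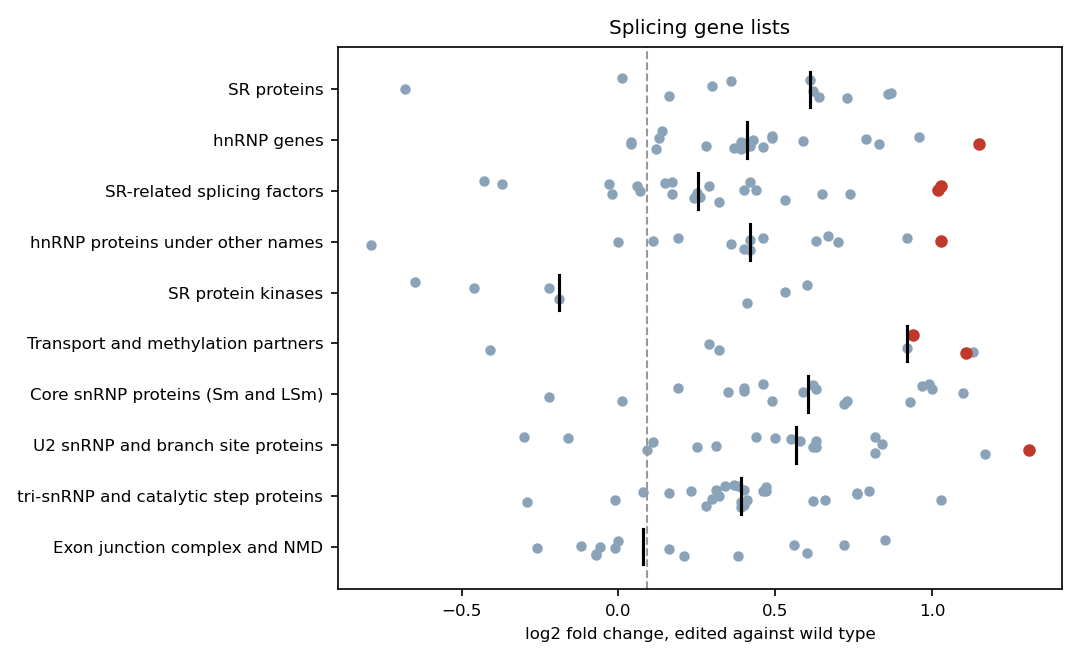
Log2 fold change of each tested gene in the SR protein and hnRNP families and in 8 lists of genes that work with them (1 row each, points spread vertically for visibility), with a black bar at the median of each list, a dashed line at the median of all tested genes (0.09) and red points for genes with an adjusted p under 0.05. The medians range from -0.19 in the SR protein kinases to 0.92 in the transport and methylation partners. Every red point is above 0, where 2.89% of all tested genes passed with a rise and 4.20% with a fall.

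Levels of proliferation genes are given beside these counts, since many splicing factor genes are known to be higher in dividing cells. Of 14 tested S phase genes 1 rose (*UHRF1*) and 6 had an unadjusted p under 0.05 from limma with the higher level in edited cells. Of the 14, 13 had a log2 fold change above 0, and the median log2 fold change was 0.48. The sums of all 15 with a row were 2215 and 1741 in edited and 1416 and 1423 in wild-type libraries. Of 15 tested G2/M genes 0 passed the adjusted or the unadjusted 0.05 in limma's test, and 13 also had a log2 fold change above 0. Their median was 0.11, with sums of 2914 and 2390 against 2550 and 2015. Over all tested genes 56.7% had a log2 fold change above 0. At an unadjusted p under 0.05 from limma, 18.7% had the higher level in edited cells. These are levels of transcripts and not counts of cells in a phase. By flow cytometry the paper reported fewer edited than unedited cells in S phase and more in G2/M. The part of the difference in S phase transcripts in the members' levels was not tested.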

How the data were processed

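RNA-seq was made by the study from poly(A)-selected RNA of 2 edited and 2 wild-type libraries, and groups were taken from the labels. The authors deposited 1 table of expression signal by gene symbol. Its values behave as corrected for transcript length and library size, and the method is not given in the sources used here. The submitters' processing notes name HISAT2, Salmon and hg38. The values are not counts, and too few of them gave whole reads for a count test. Depth was estimated from low values of 788 single-transcript genes. At the step chosen 40 values lay at whole multiples of it, beside a median of 12 over the steps searched. The step was carried between libraries by ratios that 86 to 155 genes shared, so read numbers rest on few values. Read numbers are approximate, and without molecular identifiers reads do not stand for separate molecules.

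The main test was limma 3.58.1 (R 4.3.3, lmFit and eBayes with a variance trend) on log2(value + 1) of genes averaging at least 10. No replicate block was used, p was adjusted by Benjamini-Hochberg over all 9590 genes, and the threshold was 0.05. The script was tested on simulated data. Differences on this scale understate those of low genes. Members and lists were chosen with earlier results of these data known. Every member may be named, with full statistics for members that passed and the 5 highest of each family, and at most 4 genes of each list that passed. Other genes were named after their values were seen.

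Positions and upstream sequence came from RefSeq (GRCh38.p14, the build of hg38), which gave 8953 of the 9590 tested genes a position. Transcript lengths and 3′ UTRs came from GENCODE canonical transcripts. The members' differences, the counts of calls and the family medians were also computed with other pseudocounts, filters, scalings and thresholds, with a block, without the variance trend and without each library. Python 3.11.15, numpy 2.4.6 and pandas 2.3.3 were used.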

Additional observations from a re-analysis of the deposited data

How the results depend on the processing

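Of 430 values of single members under the alternatives, 425 stayed on the same side of the threshold, 0 passed it newly and 5 no longer passed. All 5 were *HNRNPAB*, under cyclic loess, a replicate block (adjusted p = 0.0675), and without edited replicate 1, wild-type replicate 1 or wild-type replicate 2. Its log2 fold change stayed between 0.88 and 1.32 and its adjusted p from limma between 0.0235 and 0.215. The number of hnRNP genes passing was thus 0 under cyclic loess, under the replicate block and at a threshold of 0.001, and 0 to 1 with a library left out.

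The median of the SR protein genes (0.61) was 0.46 with a pseudocount of 5, 0.48 with a mean of at least 50, 0.49 with equal totals, 0.43 with quantile normalization, 0.33 with cyclic loess and 0.49 to 0.67 with a library left out. That of the hnRNP genes (0.41) was 0.29, 0.24 and 0.16 under these 3 scalings and 0.32 to 0.51 with a library left out. Of all genes, 680 passed, 419 with a mean of at least 50, 133 under the replicate block, 1 at 0.001, and 4 (without wild-type replicate 2) to 1431 (without edited replicate 2) with a library left out. It was 424 without edited replicate 1 and 47 without wild-type replicate 1. Of the other splicing genes listed, 6 passed, 0 under the block and at 0.001, and 0 to 14 with a library left out.

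Same-numbered libraries deviated with a correlation of -0.138 over 9590 genes, so the values showed no pairing by number. With 2 libraries per group this cannot tell whether samples were prepared in pairs, and the labels do not say. With crossed numbers as the block, added after seeing the data, 1002 genes passed. A library left out leaves 1 in its group, which is assumed to vary like the rest. The cause of these changes was not tested.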
